A study of Sus scrofa with 6 samples.

Results

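Genes of the pathways that control meiotic resumption and the metaphase II arrest were examined in porcine oocytes: CDK1, CCNB1, CCNB2, CCNB3, CDC25B, WEE2, MOS, MAP2K1 and FBXO43. They were chosen by name, with earlier results of these data known. All 9 were found among the 29861 genes listed in the table of the whole series. RNA was sequenced from 6 samples of pooled oocytes from abattoir ovaries, matured in vitro as cumulus-oocyte complexes. The 2 control samples were cultured at the normal temperature without NMN, and the 2 heat-stressed samples spent the first 24 h at the raised temperature. The 2 NMN-supplemented samples received the same heat with nicotinamide mononucleotide, a precursor of the coenzyme NAD, in the medium. No group received NMN without heat, so heat and NMN can be separated only within the heated oocytes. The labels give the stage of every sample as GV at 24 h, whereas the methods name metaphase II oocytes, so it is not settled whether the sampled oocytes had resumed meiosis.

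Maturation promoting factor (MPF) is the kinase CDK1 bound to a B-type cyclin, and its activity takes the oocyte from prophase arrest through germinal vesicle breakdown. Oocyte-specific WEE2 phosphorylates CDK1 and keeps it inactive, and the phosphatase CDC25B removes this phosphate. The kinase MOS activates MAP2K1, also known as MEK1, which activates MAP kinase. FBXO43, also known as EMI2, inhibits the anaphase-promoting complex and so spares cyclin B during the metaphase II arrest. In many mammalian oocytes these proteins are made from stored maternal transcripts, so a transcript level need not follow the protein level.

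Sequences are given for the sites through which these proteins meet, since WEE2 and CDC25B act on CDK1, and the anaphase-promoting complex acts on the cyclins. They were read from the Sscrofa11.1 genome by the RefSeq coding exons, 5′ to 3′ on the coding strand. In the CDK1 line, capitals mark codons 14 and 15, for the threonine and tyrosine whose phosphorylation holds CDK1 inactive. They lie on chromosome 14 within 64236436 to 64240320, and the stretch is joined across an exon boundary. In the cyclin lines, capitals mark the arginine, leucine and asparagine codons of the destruction box, at codons 42, 45 and 50 of CCNB1 and 32, 35 and 40 of CCNB2. The CCNB1 box lies in an exon at chr16:47339102-47339128 on the plus strand, and the CCNB2 box at chr1:112938912-112938938 on the minus strand.
CDK1: ggagaaggtACCTATgga
CCNB1: AGAactgctCTTggagacatcggtAAC
CCNB2: AGGgcagttTTAgaagaaattggaAAT

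Levels are given as FPKM, sequenced fragments scaled by transcript length and by library size, which can be compared between genes. The FPKM were summed to between 163929 and 290136 per sample. The mitochondrially encoded genes took 61.7% to 66.4% of the sum in control, 62.4% to 71.6% in heat-stressed and 74.2% to 74.7% in NMN-supplemented oocytes. Of 11 oocyte markers 9 had a mean of at least 1 FPKM, and the marker sum was 2490 to 2613 FPKM in control, 2462 to 2595 in heat-stressed and 2199 to 2374 in NMN-supplemented samples. Of 13 listed cumulus and granulosa markers, 0 reached that mean, 2 (AMH and INHA) were listed at 0 in every sample, and the sum was 0.993 to 1.30, 1.08 to 1.68 and 1.23 to 1.27 FPKM in the same order. Of 3 blood markers 0 reached it, with sums of 0.387 to 0.439, 0.0211 to 0.157 and 0 to 0.105 FPKM. The oocyte sum was mostly BMP15 and GDF9, which moved in opposite directions. GDF9 was at 732 and 777 FPKM in control but 435 and 353 FPKM with NMN and heat. BMP15 rose from 1606 and 1646 to 1820 and 1751 FPKM. ZAR1 fell from 17.3 and 23.8 to 4.30 and 2.84 FPKM between these groups. ZP2, ZP3, ZP4 and NLRP5 were also lower without overlap, whereas DAZL and OOEP overlapped. The sum therefore does not show that single oocyte markers were stable. In pooled oocytes, a lower transcript content per oocyte and fewer oocytes that hold the transcript cannot be told apart.

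Over the 6 samples the members covered a wide range of transcript levels. MOS was the highest, with a mean of 739 FPKM, which ranked 21 among the listed genes. WEE2 followed with 198 FPKM, CCNB1 with 65.1 FPKM and FBXO43 with 30.8 FPKM, and each of these was higher than the next in every sample with no overlap of the ranges. CCNB2 (9.56 FPKM) and CCNB3 (6.17 FPKM) overlapped in range, although CCNB2 was the higher in 6 of 6 samples. CDK1 (2.57 FPKM), MAP2K1 (2.37 FPKM) and CDC25B (2.17 FPKM) overlapped in range, and for neither neighbouring pair was one gene the higher in more than 3 of 6 samples. The transcript of the kinase CDK1 was thus far below that of its main cyclin partner, and the inhibitory kinase WEE2 was far above the opposing phosphatase CDC25B.

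**Figure D1:**
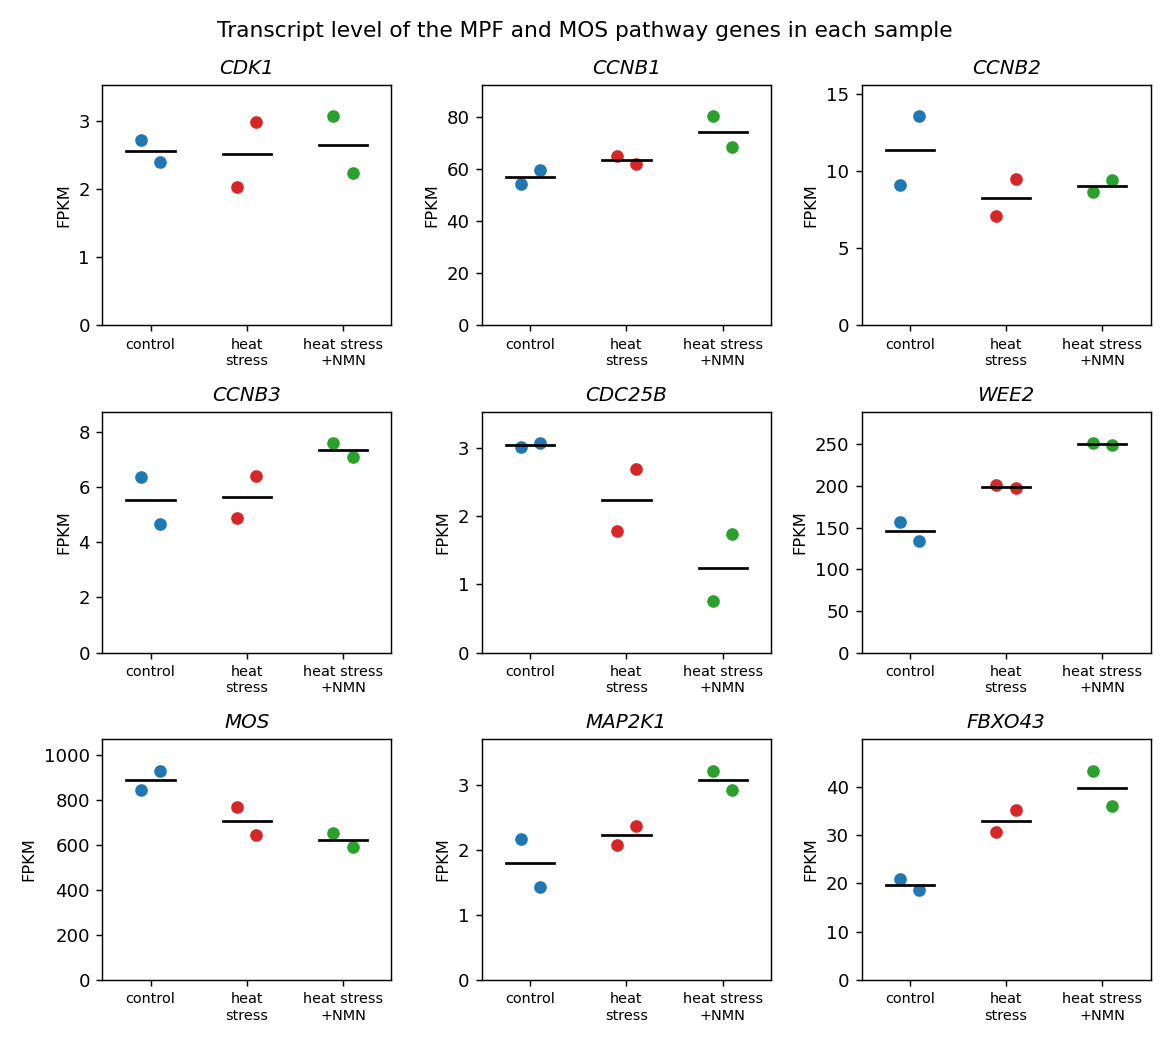
FPKM of each of the 9 genes (vertical axes, linear and starting at 0) in the 2 samples of each group (points), with the group mean as a bar. WEE2 and FBXO43 step up, and CDC25B steps down, from control through heat-stressed to NMN-supplemented samples without overlap, whereas CDK1 overlaps in every pair of groups.

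All 9 genes had a mean of at least 1 FPKM and entered a limma fit with 4713 genes, on log2(FPKM + 1) values. A gene was called at an unadjusted P under 0.05, and the P adjusted over all tested genes is given beside it. Neither the labels nor the methods say that the samples of a group came from separate cultures, so P-values measure only the spread between these samples. For any single gene an exact permutation test of 2 samples against 2 cannot go below a two-sided P of 0.333, which is why the limma fit across genes was used.

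Heat stress against control gave 2 called members of 9, against 22.8% of all tested genes, and both were higher with heat. None of this passed adjustment: 0 of 9 members and 0% of all tested genes had an adjusted P under 0.05 (limma). The median log2 fold change of the members was 0.030 and that of all tested genes 0.049. NMN with heat against heat alone gave 1 called member of 9, against 13.6% of all tested genes. The adjusted count was again 0 of 9 and 0% of all tested genes (limma). Here the median was 0.22 for the members and 0.078 for all tested genes. NMN with heat against control gave 6 called members of 9, 4 higher and 2 lower, against 41.3% of all tested genes, and the medians were 0.37 and 0.11. After adjustment 2 of 9 were under 0.05, both higher, against 21.5% of all tested genes. The comparisons share samples, so their values are set side by side and not counted as separate evidence. Without control replicate 2 or NMN-supplemented replicate 1, fewer members were called for NMN against control, and fewer of all tested genes as well. No member kept an adjusted P under 0.05 when either of these, or NMN-supplemented replicate 2, was left out. The adjusted count over all tested genes also fell in these fits.

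WEE2 and FBXO43 were the members with the smallest P in the heat comparison. WEE2, the inhibitory kinase of CDK1, lies on chromosome 18 from 8171133 to 8196836 on the minus strand. Control samples held 157 and 134 FPKM, heat-stressed samples 201 and 198 FPKM, and NMN-supplemented samples 251 and 249 FPKM. The groups did not overlap, and the samples within the heated groups differed by little. The mean was 1.37-fold higher with heat than in control and 1.26-fold higher with NMN than with heat alone. On the log2 scale WEE2 was 0.45 higher with heat (SE 0.12, unadjusted P = 0.0104, adjusted P = 0.140) and 0.33 higher with NMN than with heat alone (SE 0.12, unadjusted P = 0.0373, adjusted P = 0.354). From control to NMN-supplemented oocytes WEE2 rose 1.72-fold, or by 0.78 in log2 terms (SE 0.12, limma adjusted P = 0.0218, range over the alternatives 0.0116 to 0.375). The call for NMN against heat was lost without either heat-stressed or either NMN-supplemented replicate, with an unadjusted P of 0.0913, 0.109, 0.139 and 0.128. A lncRNA on the other strand, LOC100513188, shares the locus and was listed at 16.8 to 26.0 FPKM, and reads of the overlap cannot be told apart where strand was not kept.

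FBXO43, the inhibitor of the anaphase-promoting complex, lies on chromosome 4 from 36856662 to 36872753 on the plus strand. It had 20.9 and 18.5 FPKM in control, 30.6 and 35.3 FPKM in heat-stressed and 43.4 and 36.1 FPKM in NMN-supplemented oocytes. The groups did not overlap, but the higher heat-stressed sample and the lower NMN-supplemented sample were close. Its mean was 1.67-fold higher with heat than in control. In log2 terms it was 0.71 higher with heat (SE 0.15, unadjusted P = 0.00368, adjusted P = 0.120), the largest in size among the members in that comparison. The log2 fold change with NMN against heat was 0.26, with a 95% interval of −0.11 to 0.63 (unadjusted P = 0.132, adjusted P = 0.422). From control to NMN-supplemented oocytes FBXO43 rose 2.01-fold, or by 0.97 in log2 terms (SE 0.15, limma adjusted P = 0.0211, range over the alternatives 0.0111 to 0.205). For both genes the adjusted P passed 0.05 when control replicate 2 (0.104 for each) or an NMN-supplemented replicate was left out (0.0968 to 0.117). With samples scaled to the same sum of genes that are not mitochondrially encoded, a sum that LOC100513953 inflates in heat-stressed replicate 1, the heat calls of WEE2 and FBXO43 were lost (log2 differences of 0.085 and 0.35, unadjusted P of 0.851 and 0.424).

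CDC25B, the phosphatase that opposes WEE2, was lower in the heated samples. It lies on chromosome 17 from 31910824 to 31929418 on the minus strand. Its level was 3.01 and 3.07 FPKM in control, 1.78 and 2.69 FPKM in heat-stressed and 0.755 and 1.73 FPKM in NMN-supplemented oocytes. The groups again did not overlap, although the samples within the heated groups lay far apart. Its log2 difference was −0.33 with heat (95% interval −0.96 to 0.29, unadjusted P = 0.235, adjusted P = 0.453) and −0.55 with NMN against heat (−1.18 to 0.078, unadjusted P = 0.0751, adjusted P = 0.383). Between NMN-supplemented and control oocytes it was −0.88 (SE 0.25, unadjusted P = 0.0143, adjusted P = 0.0592), and the mean FPKM was 0.409 of that in control. This call was lost without either control replicate or without NMN-supplemented replicate 1 (unadjusted P = 0.0572, 0.0606 and 0.0583). Without NMN-supplemented replicate 2, the difference between NMN and heat was called as well (unadjusted P = 0.0138).

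Since WEE2 and CDC25B act on CDK1 in opposite directions, their ratio was taken within each sample. The log2 ratio of CDC25B to WEE2, with 1 FPKM added to each, was −5.30 and −5.06 in the controls, −6.18 and −5.75 with heat and −7.17 and −6.52 with heat and NMN. The ratio was lower in every heated sample than in every control sample and lowest in both NMN-supplemented samples. This order follows from WEE2 stepping up and CDC25B stepping down without overlap. It is therefore a summary of the 2 genes and not separate evidence. The group means were −5.18 ± 0.17, −5.97 ± 0.31 and −6.84 ± 0.46 (SD, n = 2 each). The difference was −0.79 for heat against control, −0.88 for NMN against heat and −1.66 for NMN against control. With 2 samples against 2, each of these had the smallest two-sided exact permutation P that the design allows, 0.333. The difference for NMN against heat was −0.55 without NMN-supplemented replicate 1, and with 0.1 FPKM added in place of 1 FPKM the differences were −0.91, −1.20 and −2.11.

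**Figure D2:**
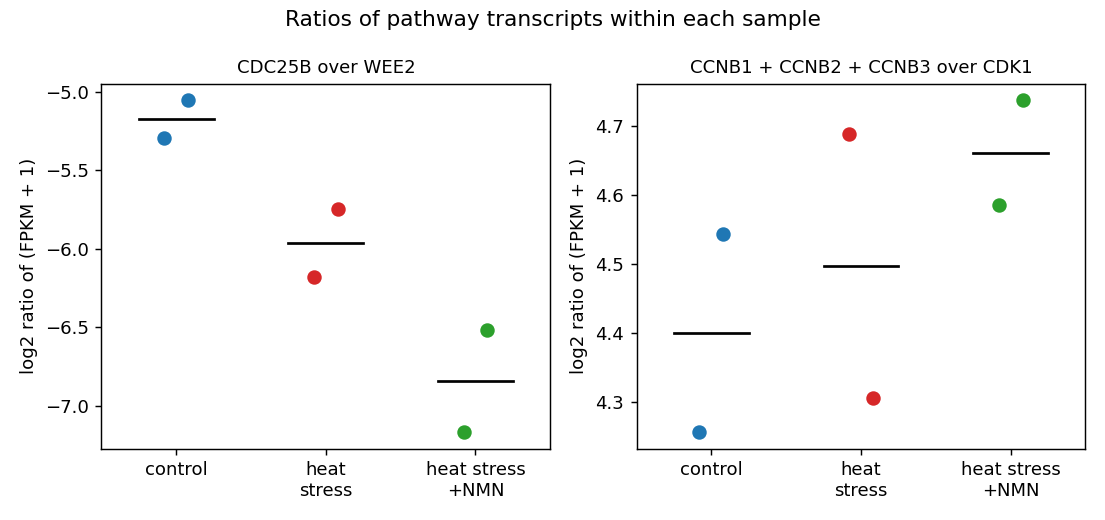
Log2 ratios of (FPKM + 1) within each sample (points, vertical axes; the axes do not start at 0), with the group mean as a bar. The CDC25B to WEE2 ratio runs from −5.06 in control replicate 2 down to −7.17 in NMN-supplemented replicate 1 with no overlap between groups, and the ratio of summed B-type cyclins to CDK1 overlaps between control and heat-stressed and between heat-stressed and NMN-supplemented samples.

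CDK1, the catalytic subunit of MPF, was not called in any comparison. It lies on chromosome 14 from 64233945 to 64255290 on the plus strand. Control samples held 2.71 and 2.39 FPKM, heat-stressed samples 2.03 and 2.99 FPKM, and NMN-supplemented samples 3.06 and 2.23 FPKM. The samples of each group lay as far apart as the groups did. Its log2 difference was −0.029 with heat (95% interval −0.50 to 0.45), 0.059 with NMN against heat (−0.42 to 0.54) and 0.030 with NMN against control (−0.45 to 0.51), with adjusted P-values of 0.932, 0.891 and 0.916. These intervals leave room for changes of either sign.

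CCNB1, the main B-type cyclin, lies on chromosome 16 from 47338239 to 47348385 on the plus strand. It had 54.4 and 59.8 FPKM in control, 65.3 and 61.9 FPKM in heat-stressed and 80.4 and 68.7 FPKM in NMN-supplemented oocytes. The groups stepped upwards without overlap. In log2 terms CCNB1 was 0.15 higher with heat (unadjusted P = 0.278, adjusted P = 0.496) and 0.22 with NMN against heat (unadjusted P = 0.136, adjusted P = 0.427). For NMN against control it was 0.37 (SE 0.13, unadjusted P = 0.0281, adjusted P = 0.0845), and the call was lost without control replicate 1 (unadjusted P = 0.104) or NMN-supplemented replicate 1 (unadjusted P = 0.172). With the scaling that LOC100513953 inflates, the heat difference turned to −0.21, and the call for NMN against control was lost (limma unadjusted P = 0.386). That call was also lost after quantile normalization (log2 difference 0.26, limma unadjusted P = 0.0774).

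CCNB2, which can stand in for cyclin B1 in mouse oocytes, lies on chromosome 1 from 112907047 to 112942218 on the minus strand. It had 9.13 and 13.6 FPKM in control, 7.07 and 9.51 FPKM in heat-stressed and 8.63 and 9.44 FPKM in NMN-supplemented oocytes. Control replicate 2 was the highest sample, and control replicate 1 lay within the range of both heated groups. Its log2 difference with heat was −0.40 (95% interval −0.95 to 0.15, unadjusted P = 0.126, adjusted P = 0.329). Without control replicate 1 the P was 0.0296.
CCNB3, which promotes the exit from meiosis I in the mouse, lies on the X chromosome from 43922729 to 43988939 on the plus strand. It had 6.38 and 4.67 FPKM in control, 4.88 and 6.41 FPKM in heat-stressed and 7.58 and 7.10 FPKM in NMN-supplemented oocytes. Control and heat-stressed samples overlapped, and both NMN-supplemented samples were higher than all others. Its log2 fold change was 0.030 with heat (adjusted P = 0.929), 0.34 with NMN against heat (unadjusted P = 0.121, adjusted P = 0.410) and 0.37 with NMN against control (unadjusted P = 0.0975, adjusted P = 0.190). Without control replicate 1 the last of these was called (unadjusted P = 0.0387).

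CCNB1 made up most of the B-type cyclin transcripts in every sample. Its share of the summed FPKM was 77.8% and 76.6% in the controls, 84.5% and 79.5% with heat and 83.2% and 80.6% with heat and NMN. The share was higher in all 4 heated samples than in both control samples. The log2 ratio of the summed cyclins to CDK1 was 4.40 ± 0.20 in the controls, 4.50 ± 0.27 with heat and 4.66 ± 0.11 with heat and NMN (SD, n = 2 per group). The differences of 0.097, 0.17 and 0.26, in the order used above, had exact two-sided permutation P-values of 0.667, 0.667 and 0.333.

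MOS, the kinase at the head of the pathway, had its lowest samples among the heated oocytes. It is a gene of 1 exon on chromosome 4 from 75739402 to 75741076 on the plus strand. Its level was 845 and 932 FPKM in control, 770 and 644 FPKM in heat-stressed and 655 and 590 FPKM in NMN-supplemented oocytes. Both control samples were above all heated samples, and the 2 heated groups overlapped. The mean was 0.796 of control with heat and 0.701 of control with heat and NMN. The difference on the log2 scale was −0.33 with heat (SE 0.14, unadjusted P = 0.0619, adjusted P = 0.237) and −0.18 with NMN against heat (unadjusted P = 0.256, adjusted P = 0.530). For NMN against control it was −0.51 (SE 0.14, unadjusted P = 0.0130, adjusted P = 0.0554), and this call was lost without control replicate 2 (unadjusted P = 0.0542) or NMN-supplemented replicate 2 (unadjusted P = 0.0900). Without heat-stressed replicate 1 the heat difference was −0.46. After quantile normalization it was −0.55 on the log2 scale (limma unadjusted P = 0.00512). The difference for NMN against control was then the same, −0.55, and that for NMN against heat was 0, so this setting did not separate the 2 heated groups. The listed locus of MOS also holds PLAG1 and LOC110260293, a lncRNA on the other strand at 1.33 to 2.23 FPKM.

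MAP2K1, the kinase that MOS activates, was highest in the NMN-supplemented samples. It lies on chromosome 1 from 164381892 to 164469313 on the plus strand, where SNAPC5 overlaps it on the other strand at 16.5 to 22.4 FPKM. SNAPC5 was likewise highest in the NMN-supplemented samples, with 21.7 and 22.4 FPKM against 16.5 to 19.9 FPKM in the others. Reads of the overlap cannot be told apart where strand was not kept, and their part in the MAP2K1 values was not tested. MAP2K1 had 2.17 and 1.43 FPKM in control, 2.08 and 2.38 FPKM in heat-stressed and 3.23 and 2.92 FPKM in NMN-supplemented oocytes. Control and heat-stressed samples overlapped, and both NMN-supplemented samples lay above all others. MAP2K1 differed by 0.22 on the log2 scale with heat (unadjusted P = 0.239, adjusted P = 0.457) and 0.34 with NMN against heat (unadjusted P = 0.0903, adjusted P = 0.390). For NMN against control it was 0.55 (SE 0.16, unadjusted P = 0.0170, adjusted P = 0.0638), and the mean was 1.71-fold that of control. This call was lost without control replicate 2 (unadjusted P = 0.0652) or NMN-supplemented replicate 1 (unadjusted P = 0.0815). MOS and MAP2K1, neighbours in the pathway, thus had differences of opposite sign in each comparison, except when FPKM were scaled to the same sum of genes that are not mitochondrially encoded, where MOS with NMN against heat was 0.21 and MAP2K1 with heat −0.0089, and after quantile normalization, where MOS with NMN against heat was 0. Without control replicate 1 the heat difference of MAP2K1 was called (unadjusted P = 0.0476), and without either control replicate so was that between NMN and heat (unadjusted P = 0.0460 and 0.0449).

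**Figure D3:**
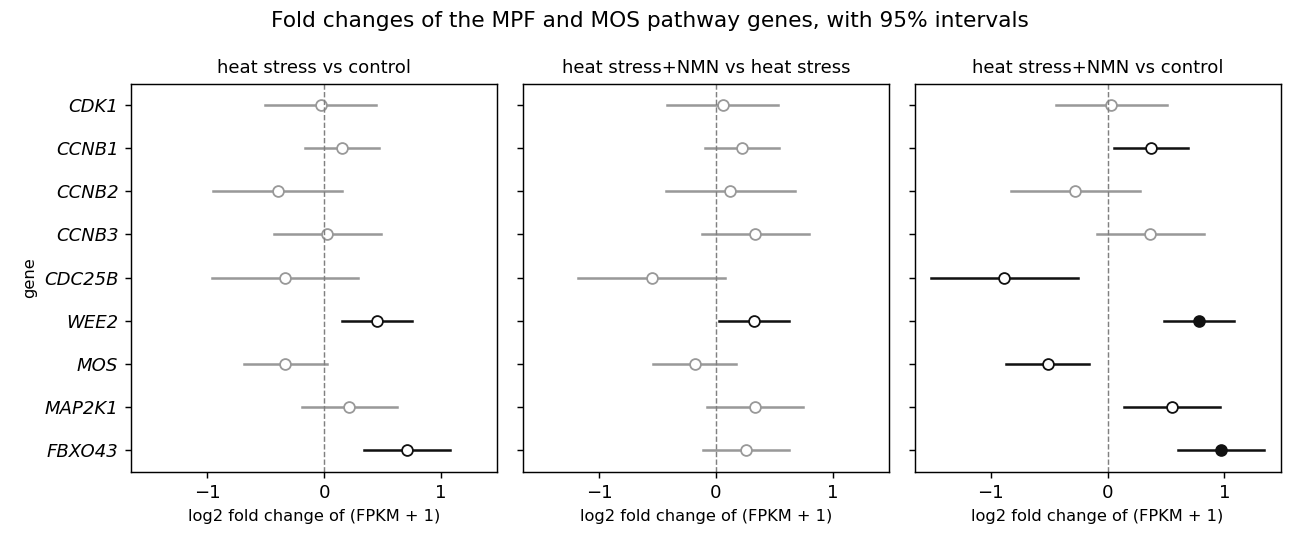
Log2 fold changes of (FPKM + 1) (horizontal axes) of the 9 genes in the 3 comparisons, with 95% intervals from limma. Black marks an unadjusted P under 0.05 and a filled point an adjusted P under 0.05, which only FBXO43 (0.97) and WEE2 (0.78) reach, in NMN-supplemented against control oocytes.

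Of the 9 members, 4 moved in steps from control through heat-stressed to NMN-supplemented samples with no overlap between neighbouring groups. CCNB1, WEE2 and FBXO43 stepped upwards and CDC25B downwards. Such steps were found in 22.8% of all tested genes, 742 upwards and 334 downwards. No member was lower with heat and higher again with NMN without overlap in both comparisons. The share of all tested genes with that pattern was not counted, so its absence cannot be called particular to the members. The mitochondrial share given above was also highest in the NMN-supplemented samples, and its part in these steps was not tested.

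The genes whose pattern over the 6 samples lay nearest to that of CCNB1 were ACTL8, RPF1 and SYTL4, with root mean square differences of 0.0248, 0.0335 and 0.0345 between centred log2(FPKM + 1) values. For MOS they were SLC25A17, WDR82 and INPP1, with 0.0314, 0.0380 and 0.0466. CCNB1 itself ranged over 0.554 and MOS over 0.658 on this scale, and 4713 genes were searched, so close neighbours are found in any case.

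Other genes of the pathway were taken from a list of 40, of which 39 were in the table and 15 reached a mean of 1 FPKM. In heat-stressed against control oocytes 1 of the 15 was called, and it was lower. With NMN against heat 3 of 15 were called, all higher. Between NMN-supplemented and control oocytes 6 of 15 were called, 4 higher and 2 lower, and 3 of them had an adjusted P under 0.05. The background shares are those given above for the members. The median log2 fold changes of the 15 genes were 0.061, 0.11 and 0.13, against 0.049, 0.078 and 0.11 for all tested genes.

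Among these, the greatwall branch, which restrains the phosphatase that opposes MPF, held genes that differed in either direction. MASTL, the greatwall kinase, had 20.9 and 15.8 FPKM in control, 23.6 and 22.3 FPKM in heat-stressed and 31.1 and 26.8 FPKM in NMN-supplemented oocytes, with no overlap between the groups. It rose from control to NMN-supplemented oocytes by 0.64 in log2 terms (SE 0.16, unadjusted P = 0.00964, adjusted P = 0.0480). Its substrate ENSA had 10.9 and 12.4 FPKM in control, and all 4 heated samples lay between 6.94 and 8.10 FPKM. The log2 fold change of ENSA was −0.67 with heat (SE 0.12, unadjusted P = 0.00207, adjusted P = 0.111), and ENSA fell from control to NMN-supplemented oocytes by 0.56 on the log2 scale (adjusted P = 0.0347). ARPP19, the other substrate, had 3.71 and 3.85 FPKM in control and 2.24 to 3.03 FPKM in the heated samples, and its log2 fold change for NMN against control was −0.40 (unadjusted P = 0.0321, adjusted P = 0.0912). Leaving out control replicate 2 or either NMN-supplemented replicate raised the adjusted P of MASTL and ENSA for NMN against control to between 0.127 and 0.205. Without control replicate 1 or either heat-stressed replicate, the adjusted P was 0.0501 to 0.0694 for MASTL and 0.0547 to 0.0598 for ENSA.

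CCNA2, the A-type cyclin, had 15.4 and 13.2 FPKM in control, 16.5 and 18.3 FPKM in heat-stressed and 21.5 and 22.9 FPKM in NMN-supplemented oocytes. The groups did not overlap, and CCNA2 rose from control to NMN-supplemented oocytes by 0.60 in log2 terms (SE 0.13, limma adjusted P = 0.0317). That adjusted P passed 0.05 without either control replicate or either NMN-supplemented replicate (0.0525 to 0.144). With NMN against heat CCNA2 had a log2 fold change of 0.34 (unadjusted P = 0.0408, adjusted P = 0.357). FBXO5, the paralogue of FBXO43 also known as EMI1, had 39.8 and 40.2 FPKM in control, 37.5 and 41.9 FPKM in heat-stressed and 55.1 and 47.4 FPKM in NMN-supplemented oocytes. Its log2 fold change with NMN against heat was 0.36 (unadjusted P = 0.0313, adjusted P = 0.352), whereas that of FBXO43 was 0.26, and the difference between the paralogues was not tested. PPP2R1A, a scaffold subunit of protein phosphatase 2A, had a log2 fold change of 0.35 with NMN against heat (unadjusted P = 0.0389, adjusted P = 0.355). The other scaffold subunit, PPP2R1B, had one of 0.28 for NMN against control (unadjusted P = 0.0369, adjusted P = 0.0993). The calls of ARPP19, FBXO5 and PPP2R1B for NMN against control were each lost without either control replicate. They held in only 12 of 16, 10 of 17 and 6 of 17 alternatives. The calls of CCNA2, FBXO5 and PPP2R1A for NMN against heat held in only 8 of 17, 11 of 17 and 7 of 16 alternatives. The alternatives in which they were lost include the one without heat-stressed replicate 1.

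**Figure D4:**
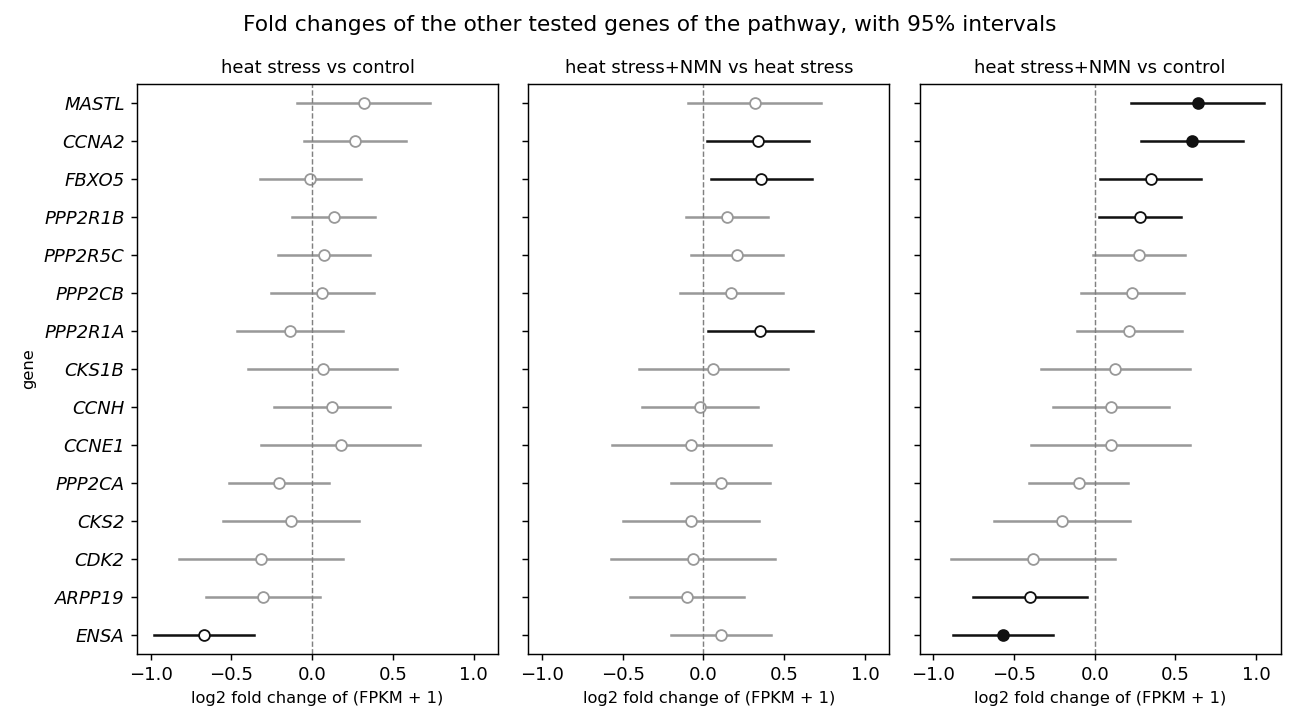
Log2 fold changes of (FPKM + 1) (horizontal axes) of the 15 other tested genes of the pathway in the 3 comparisons, ordered by NMN-supplemented against control, with 95% intervals from limma. Black marks an unadjusted P under 0.05 and a filled point an adjusted P under 0.05, which MASTL, CCNA2 and ENSA reach in NMN-supplemented against control oocytes.

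The remaining 24 genes of the list had a mean under 1 FPKM and were not tested, and most paralogues of the members were among them. WEE1, the somatic counterpart of WEE2, had a mean of 0.0384 FPKM, and the membrane-bound kinase PKMYT1 had 0.538 FPKM. PKMYT1 was at 0.602 and 1.06 FPKM in control, 0.293 and 0.604 FPKM in heat-stressed and 0.212 and 0.458 FPKM in NMN-supplemented oocytes, so its group means ran downwards, unlike those of WEE2, while neighbouring groups overlapped. The CDC25 phosphatases CDC25A and CDC25C had 0.776 and 0.258 FPKM, below CDC25B. CDC25A was at 1.18 and 1.12 FPKM in control, 0.686 and 0.775 FPKM in heat-stressed and 0.367 and 0.533 FPKM in NMN-supplemented oocytes, which did not overlap and ran in the same order as CDC25B. CDC25C did not run in that order, with group means of 0.296, 0.207 and 0.270 FPKM. MAP2K2, the paralogue of MAP2K1, had 0.0409 FPKM, and MAPK3 had 0.282 FPKM. Among the RSK kinases downstream of MAP kinase, RPS6KA3 was the highest at 0.366 FPKM. MAP2K1, MAP2K2, MAPK3 and RPS6KA3 were thus listed at far lower FPKM than MOS itself.

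The 3′ ends of the members were searched for the cytoplasmic polyadenylation element, which in stored maternal transcripts guides lengthening of the poly(A) tail and translation. The last 150 bases of the RefSeq transcript with the longest coding sequence were read, and TTTTAT or TTTTAAT was sought on the sense strand only. CCNB1, CCNB3 and MAP2K1 held such an element, that is 3 of 9 members, against 31.8% of 4157 tested genes with such a window. All 3 also held the polyadenylation signal AATAAA in the last 50 bases. The element stands in capitals in 30 bases from each transcript, 74, 69 and 63 bases before the annotated end. The stretches lie on the plus strand at chr16:47348300-47348329, chrX:43988859-43988888 and chr1:164469239-164469268 of Sscrofa11.1.
CCNB1: gaaaaatgagaaTTTTAATttatattcaaa
CCNB3: tttaagttttttTTTTATaaaagagaagaa
MAP2K1: atccttttaccaTTTTAATccagatattta
In MOS, WEE2 and CCNB2 neither AATAAA nor ATTAAA was in the last 50 bases of the annotated transcript, so their annotated windows need not reach the cleavage site. CCNB1 and MAP2K1 were called, both higher, in NMN-supplemented against control oocytes, and CCNB3 was not called. FBXO43 and WEE2, with the smallest P-values, held no such element in the window.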

How the data were processed

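The authors deposited FPKM per gene and sample, and per the labels and methods they used cutadapt, tophat2 with the susScr11 (Sscrofa11.1) genome, Cufflinks 2.2.1, Cuffnorm and Cuffdiff. Counting by strand is not given in the sources used here. The deposited fold changes, P-values, q-values and gene lists of the authors' own comparisons were not used. No counts were used, so the depth is unknown. Samples were grouped by their treatment labels, with 2 samples each. FPKM were log2-transformed after adding 1 FPKM, which understates changes of low genes. The 4713 genes with a mean of at least 1 FPKM were fitted together in limma 3.58.1 (R 4.3.3), with a variance trend and Benjamini-Hochberg adjustment; the script was first tested on simulated data. All members are named, as are list genes that were called and whose groups did not overlap, at most 6 per comparison by smallest P. Members and lists were chosen with earlier results of these data known. CDC25A and the other untested paralogues were named after their values were seen. Alternatives were other pseudocounts, minimum levels, scalings, the replicate block, fits of only the compared groups, no variance trend and leaving out each sample. Table starts count from 0 and positions are given from 1. Python 3.11.15 and Biopython were used for the sequences. One gene of the pathway list is not reported here.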

Additional observations from a re-analysis of the deposited data

How the results depend on the processing

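Members called were counted again under each alternative. With FPKM scaled to the same sum of genes that are not mitochondrially encoded, which LOC100513953 (13.9% of the sum in heat-stressed replicate 1) inflates in that sample, the counts were 0 with heat, 0 with NMN against heat and 2 with NMN against control. Of all 4713 tested genes 561, 271 and 788 were called with this scaling, against 1074, 641 and 1948 without it. That scaling moved the median of the log2 fold changes over all genes tested to −0.22, 0.35 and 0.13. It also turned the log2 fold changes of CCNB1 (−0.21), CCNB3 (−0.26) and MAP2K1 (−0.0089) with heat and of MOS with NMN against heat (0.21). When LOC100513953 was left out of that sum as well, a choice made after the data were seen, the counts were 3, 1 and 6, and CCNB3 with heat was −0.0013. With only the 2 compared groups in the fit, 2 members were called with NMN against heat. Leaving out each sample gave 2 to 4 called members with heat, 0 to 2 with NMN against heat and 3 to 6 with NMN against control.
The log2 ratio of summed B-type cyclins to CDK1 lay between −0.095 and 0.29 for heat against control and between −0.027 and 0.36 for NMN against heat when each sample was left out. Leaving out each sample also gave CDK1 log2 fold changes of −0.23 to 0.17 with heat, −0.14 to 0.26 with NMN against heat and −0.14 to 0.20 with NMN against control. It gave −0.069 to 0.31 for CCNB2 with NMN against heat and −0.16 to 0.22 for CCNB3 with heat. After quantile normalization MOS with NMN against heat was 0. The other values for single genes kept their direction under all alternatives, and of the values for single genes 520 stayed on their side of an unadjusted P of 0.05, 72 lost the call, 12 gained it and 14 turned. The adjusted P of FBXO43 and WEE2 with NMN against control was 0.0505 for both with a minimum mean of 0.1 FPKM, 0.0850 and 0.0832 with no minimum, where more genes are adjusted over, and 0.205 and 0.375 with the scaling to the same sum. The share of all tested genes called moved as well: with NMN against control 1015 genes had an adjusted P under 0.05, but 445 with the replicate block, 86 with a minimum of 0.1 FPKM, 0 with no minimum or without control replicate 2, and 1 without either NMN-supplemented replicate. No shared effect of the replicate number was seen, since deviations of same-numbered samples correlated by −0.032, −0.014 and 0.0081 across genes. That cannot show whether same-numbered samples came from the same ovaries or culture. With the replicate number as a block 3, 1 and 6 members were called, with CCNB2 added for heat and CDC25B in place of WEE2 for NMN against heat. Of all tested genes 937, 527 and 1815 were called with the block. Quantile normalization left 218 higher and 310 lower called genes of all tested with NMN against heat, against 337 and 304. The cause of these changes was not tested, and with 2 samples per group the depth behind low FPKM, such as those of CDC25B, CDK1 and MAP2K1, is unknown.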
